A study of Mus musculus with 6 samples.

Results

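The islet hormone genes were defined as Ins1, Ins2, Gcg, Sst, Ppy, Pyy, Iapp and Ttr, and every probe set that the platform annotation maps to 1 of them was taken. Of these 8 genes, 6 had a probe set, and together they had 8 of the 12488 probe sets on the Affymetrix MG-U74Av2 array. Ins2 and Ppy each had 2 probe sets, and Gcg, Sst, Iapp and Ttr had 1 each. No probe set was mapped to Ins1 or Pyy, and these genes are not analysed here. All 8 probe sets were above the floor for low values (47.6, the 20th percentile of all values) on all 6 arrays, and 7 of the 8 were bright enough to be tested.

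Total RNA of the pancreas was measured in 3 control mice, genotype CFTR+/+, and 3 mice called CF here, genotype CFTR-/-, with 1 mouse per array. All of them were gastrin+/-, so that the controls too had a single working gastrin allele. They were males aged 56 to 58 days of mixed black6 and 129Sv origin, mostly the former. From before weaning all received Peptamen, a liquid peptide diet that keeps the gut of CF mice from blocking. Cftr encodes the epithelial anion channel that is defective in cystic fibrosis. The genotypes were compared to see what its absence changes among the transcripts of the pancreas, and the ratios between hormones on each array show whether the islet hormones kept step with each other. RNA came from the whole gland, so fewer islet cells and less hormone RNA per islet cell cannot be told apart.

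Pancreatic islets are clusters of endocrine cells scattered through the enzyme-secreting acinar tissue. Beta cells make insulin, which lowers blood glucose, and store it with amylin, the product of Iapp. Alpha cells make glucagon, the product of Gcg, which raises blood glucose, and delta cells make somatostatin, which restrains the release of the other hormones. PP cells make pancreatic polypeptide, encoded by Ppy, and are concentrated in the part of the gland that forms from the ventral bud. Ttr encodes transthyretin, a carrier of thyroxine and of retinol binding protein; it is made mainly by liver and choroid plexus and is also found in islet endocrine cells. In the mouse, Ins2 is the counterpart of the single human insulin gene, and Ins1 is a second copy that arose by retroposition.

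The RNA of Ins2, Gcg and Iapp varied together across the arrays. Sst varied with Gcg and Iapp more loosely (r = 0.77 and 0.80). The dimmer Ppy probe set also did (0.83 and 0.80), and the brighter did not (-0.01 and -0.16). Without control replicate 1 and CF replicate 1, the dimmer was at 0.76 with Gcg and 0.43 with Iapp. The genes shown are thus not clearly parted by whether their RNA varied together. No upstream sequence of Ins2 or Ttr was used. Those of Gcg, Sst, Iapp and Ppy are shown as a description. Each is the run of 250 bases before the annotated start, 5′ to 3′ on the strand of the gene, from RefSeq for build GRCm38.p6. Capitals mark TAAT or its reverse complement ATTA, the core bound by homeodomain factors such as Pdx1, and TGACGTCA, the cAMP response element.
Gcg (chr2:62483654-62483903, minus strand): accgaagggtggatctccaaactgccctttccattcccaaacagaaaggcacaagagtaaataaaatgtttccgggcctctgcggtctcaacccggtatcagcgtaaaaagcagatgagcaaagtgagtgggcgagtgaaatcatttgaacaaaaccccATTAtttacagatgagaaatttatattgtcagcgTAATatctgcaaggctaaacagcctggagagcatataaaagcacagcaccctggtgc
Sst (chr16:23890845-23891094, minus strand): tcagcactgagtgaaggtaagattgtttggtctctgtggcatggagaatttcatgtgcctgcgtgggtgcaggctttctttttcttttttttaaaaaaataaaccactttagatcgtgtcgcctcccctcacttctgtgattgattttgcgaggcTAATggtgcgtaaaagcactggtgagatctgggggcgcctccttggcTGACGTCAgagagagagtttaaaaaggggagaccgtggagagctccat
Iapp (chr6:142298175-142298424, plus strand): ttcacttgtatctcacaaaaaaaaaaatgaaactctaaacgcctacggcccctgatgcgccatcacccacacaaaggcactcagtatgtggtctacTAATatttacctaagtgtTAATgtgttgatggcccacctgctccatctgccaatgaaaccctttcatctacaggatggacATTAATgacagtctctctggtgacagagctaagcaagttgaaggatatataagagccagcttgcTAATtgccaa
Ppy (chr11:102101320-102101569, minus strand): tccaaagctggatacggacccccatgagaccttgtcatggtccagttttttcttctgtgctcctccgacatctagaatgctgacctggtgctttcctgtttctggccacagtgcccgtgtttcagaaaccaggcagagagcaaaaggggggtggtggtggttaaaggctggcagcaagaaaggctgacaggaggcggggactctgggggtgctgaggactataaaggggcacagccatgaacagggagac

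Searched on both strands, TAAT had 5 matches before Iapp, of which 2 overlap in a run read ATTAAT, 2 before Gcg, 1 before Sst and 0 before Ppy. Of 32851 annotated start sites with windows of the same length, 54.9% held TAAT at least once and 5.54% held it at least 5 times. The palindrome TGACGTCA stood at positions -48 to -41 from the Sst start and in none of the other windows shown, and 1.55% of all windows held it. The letters TATAAA, not capitalised, stood from -24 to -19 before Gcg and from -31 to -26 before Ppy; on the other strand they stood from -72 to -67 before Gcg. They overlapped no capitalised match in these windows, and 12.4% of all windows held them. A match in these windows describes the sequence and is no measurement of binding.

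The insulin, amylin and glucagon transcripts spanned 4.13- to 5.99-fold ranges among controls and 2.04- to 2.94-fold ranges among CF mice. No islet hormone probe set differed between CF and control past the threshold. In limma, 0 of the 7 tested probe sets had an adjusted p under 0.05, beside 0.0646% of all 7739 probe sets tested, and 0 of the 7 had an unadjusted p under 0.05, beside 7.38% of all. The p-values were adjusted by Benjamini-Hochberg over all 7739 probe sets, and values are intensities on a linear scale as deposited.

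Ins2, on its bright probe set 100150_f_at, read 16744, 69135 and 48284 in the controls and 18824, 30857 and 53156 in CF, here and below in the order of replicates 1, 2 and 3. Replicate 1 was the lowest array of either group, and the groups overlapped throughout. The means were 44721 ± 26376 in controls and 34279 ± 17420 in CF (SD, n = 3 per group), and the log2 difference, CF minus control, was -0.29 ± 0.52 SE (limma adjusted p = 0.94). The 95% interval of that difference, -1.48 to 0.91, allows CF levels from 0.359 to 1.87 times those of controls. The brightest probe set of each array read 92020 to 135426, and whether changes of Ins2 are compressed at such brightness was not tested. The suffix _f marks a probe set shared by a family of similar sequences, and how much Ins1 RNA it reads was not measured.

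The dim second probe set of Ins2, 161849_r_at, read 54.1, 243 and 109.1 in controls and 114.1, 126.2 and 128.4 in CF. It was too dim to be tested. It shared with the bright one the lowest value in control replicate 1 and the highest in control replicate 2, while its CF values lay within a 1.13-fold range.

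Iapp (99488_at), the amylin gene, read 776.8, 4656 and 2720 in controls and 1263, 2304 and 3717 in CF. The order of the 6 arrays was that of Ins2, with control replicate 1 lowest and control replicate 2 highest. The controls alone spanned a 5.99-fold range, and the log2 difference was 0.05 ± 0.62 (limma adjusted p = 0.99, 95% interval -1.36 to 1.45).

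Gcg (94633_at), the glucagon gene, read 322.7, 1472 and 813.9 in controls and 448.8, 877.6 and 914.9 in CF. Its lowest and highest arrays were again control replicates 1 and 2. The log2 difference was -0.03 ± 0.52 (limma adjusted p = 0.99, 95% interval -1.21 to 1.14), so that CF levels from 0.432 to 2.21 times those of controls lie inside the interval.

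Sst (95436_at), the somatostatin gene, read 110.3, 617.8 and 150.2 in controls and 208.4, 175 and 453.4 in CF. A single array of each group was high, control replicate 2 and CF replicate 3, and the other 4 lay between 110.3 and 208.4. The log2 difference was 0.23 ± 0.66 (limma adjusted p = 0.96), the widest interval of the 7 probe sets (-1.26 to 1.72).

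Ppy, the pancreatic polypeptide gene, was steadier than the hormones above. Its brighter probe set, 162464_f_at, read 552.1, 626.5 and 527.2 in controls and 717.7, 711.8 and 516.3 in CF. The suffix _f, as for Ins2, marks a shared probe set, and what else it reads was not measured. CF replicates 1 and 2 were the highest arrays and CF replicate 3 the lowest, and the log2 difference was 0.18 ± 0.22 (limma adjusted p = 0.91). The dimmer probe set, 94148_at, read 202.1, 387.3 and 343.7 in controls and 321.1, 326.1 and 301.6 in CF, with a log2 difference of 0.08 ± 0.32 (adjusted p = 0.97). The 2 probe sets ordered the arrays differently: on the dimmer one control replicate 1 was lowest, as for Ins2, and on the brighter one CF replicate 3 was lowest.

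Ttr (95350_at) was the single hormone-list gene whose groups did not overlap. It read 345.4, 409.9 and 347 in controls and 257.3, 231.9 and 270.6 in CF, so that each CF mouse lay below each control mouse. The means were 367 ± 36.8 and 253 ± 19.7, and the log2 difference was -0.54 ± 0.26 (limma adjusted p = 0.70; 95% interval -1.12 to 0.05). The difference did not pass the threshold. Without overlap, 5.62% of all tested probe sets were lower in CF and 7.37% higher, 13.0% in all, so that 1 of 7 members, 14.3%, is near the background.

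**Figure D1:**
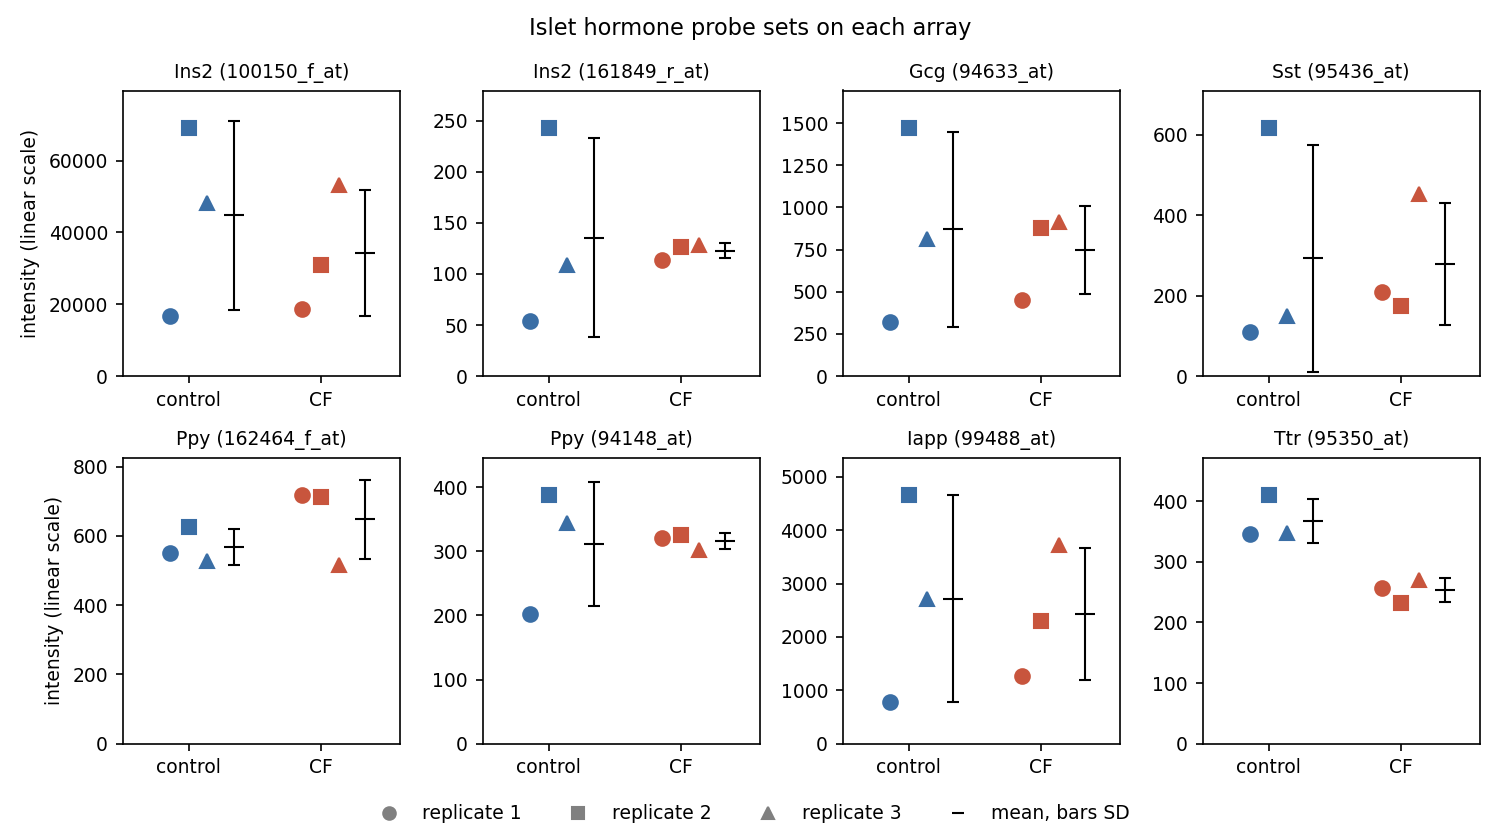
Intensity on a linear scale (y axis) of the 8 islet hormone probe sets on each array, controls in blue and CF in red, with the replicate number as the symbol; the black bar is the group mean and its whiskers the SD (n = 3). Control replicate 1 is low and control replicate 2 high for Ins2, Gcg and Iapp, and for Ttr the 3 CF values lie between 231.9 and 270.6, below the 3 control values.

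Except for Ttr and the brighter Ppy probe set, the sign of these small differences depended on single mice. Without control replicate 2 the log2 difference was 0.14 for Ins2, 0.47 for Gcg, 0.99 for Sst and 0.61 for Iapp. Without control replicate 1 it was -0.88 for Ins2, -0.62 for Gcg, -0.26 for Sst, -0.69 for Iapp and -0.21 for the dimmer Ppy probe set. Leaving out CF replicate 1 gave 0.08 for Ins2 and 0.30 for Gcg, and leaving out CF replicate 3 gave -0.19 for Sst and -0.33 for Iapp. Without control replicate 3 the values were 0.05 for Gcg and -0.04 for Sst. For Ttr the value stayed between -0.58 and -0.45 whichever array was left out, with none of these past the threshold.

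Mice whose titles carry the same suffix, numbered here as the same replicate, were also compared as pairs. The within-pair log2 differences of Ins2 were 0.17, -1.16 and 0.14 for replicates 1, 2 and 3, those of Gcg 0.48, -0.75 and 0.17, and those of Iapp 0.70, -1.02 and 0.45. In each of these genes CF was higher in 2 of 3 pairs and lower in the pair of replicate 2. With the replicate as a block the SE of the Ins2 difference was 0.27 and that of Gcg 0.26, and the adjusted p-values were 0.73 and 0.97. For Ttr all 3 pairs were lower in CF, by -0.42, -0.82 and -0.36, and the blocked adjusted p was 0.47.

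**Figure D2:**
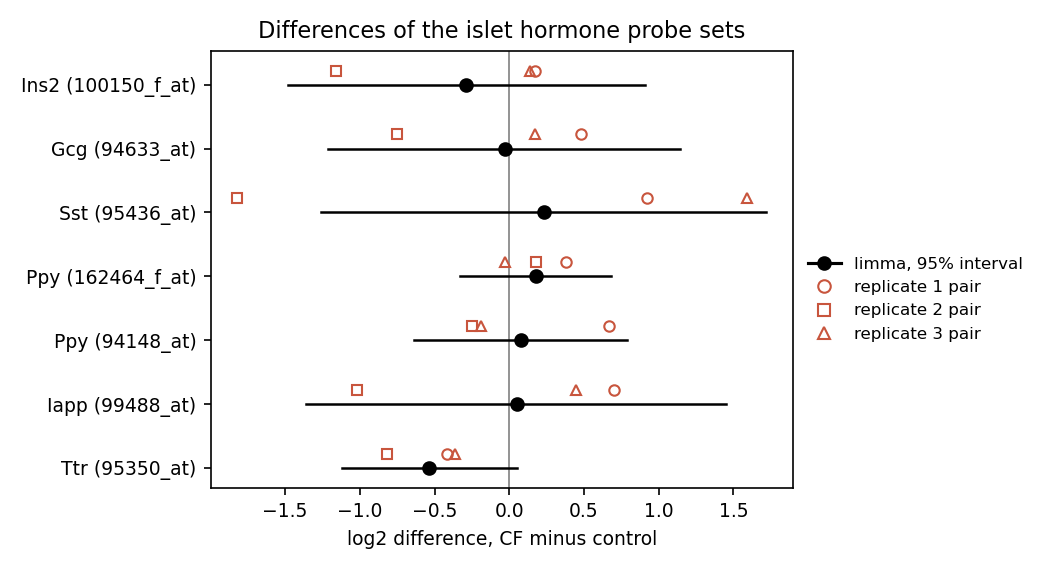
Log2 difference of CF minus control (x axis) for the 7 tested probe sets (y axis): black points are limma estimates with 95% intervals, and open red symbols above them the 3 within-pair differences. The interval of each includes 0; for Ttr it runs from -1.12 to 0.05 and the 3 pairs lie below 0.

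The spread among mice of the same genotype set the hormones apart from each other. The within-group SD of the log2 values was 1.09 for Iapp, 1.07 for Sst, 0.92 for Ins2 and 0.88 for Gcg, against a median of 0.34 over all tested probe sets. Iapp varied more than 96.1% of them, Sst more than 95.8%, Ins2 more than 92.0% and Gcg more than 90.8%. Ppy varied more than 21.9% on its brighter and more than 52.2% on its dimmer probe set, and Ttr more than 5.09%, with an SD of 0.13.

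**Figure D3:**
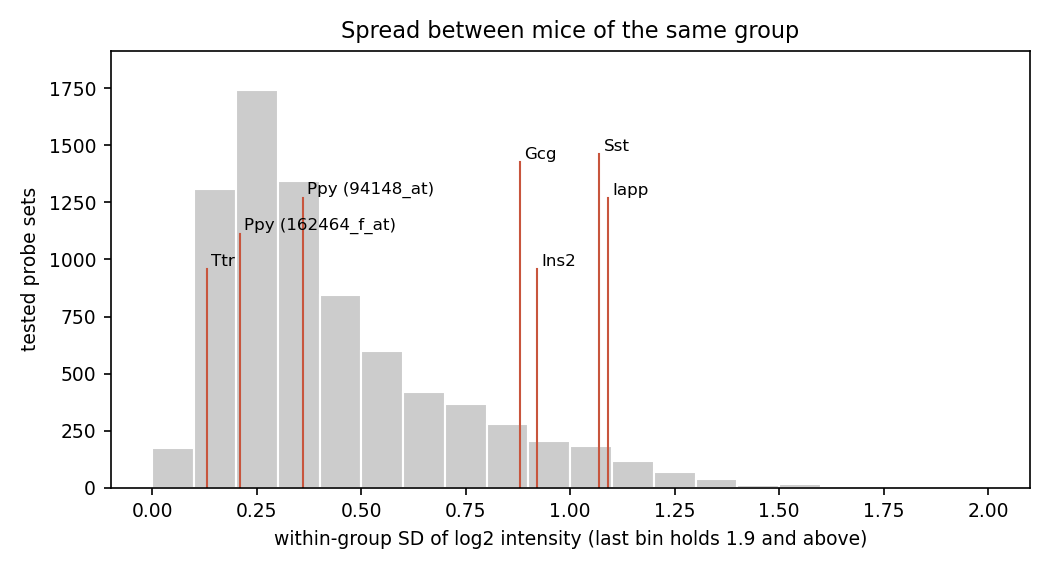
Number of tested probe sets (y axis) by the within-group SD of their log2 intensity (x axis), with red lines at the 7 islet hormone probe sets. Ins2, Gcg, Sst and Iapp lie in the right tail at 0.88 to 1.09, and Ttr lies at 0.13.

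Ratios between hormones were formed on each array from the brightest probe set of each gene, as differences of log2 values. A ratio of 2 probe sets is not a ratio of molecules, so only its change from array to array is read. The Ins2/Iapp ratio, between the 2 beta cell secretory products, was the steadiest of the 15 pairs. Its log2 value was 4.43, 3.89 and 4.15 in controls and 3.90, 3.74 and 3.84 in CF, and its SD over the 6 arrays was 0.25. The CF mean of 3.83 ± 0.08 lay -0.33 from the control mean of 4.16 ± 0.27 (exact two-sided permutation p = 0.2). CF replicate 1 exceeded control replicate 2, so that the groups overlapped.

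The Gcg/Iapp and Ins2/Gcg ratios, which set alpha against beta cell products, had SDs of 0.27 and 0.29 over the 6 arrays. The log2 Ins2/Gcg ratio was 5.70, 5.55 and 5.89 in controls and 5.39, 5.14 and 5.86 in CF, a difference of -0.25 that overlapped between the groups (exact permutation p = 0.4). Over the same arrays Ins2 itself spanned a 4.13-fold range and Gcg a 4.56-fold range. Their ratio spanned a 1.69-fold range, or 0.75 on the log2 scale, from the lowest to the highest array.

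Ratios with Sst, with Ttr and with the brighter Ppy probe set moved more. The SDs of Ins2/Sst, Gcg/Sst and Sst/Iapp were 0.65, 0.62 and 0.61. The log2 Ppy/Iapp ratio was -0.49, -2.89 and -2.37 in controls and -0.82, -1.69 and -2.85 in CF, with an SD of 1.03, the largest of the 15. The replicate 1 arrays were the 2 highest, which is where Iapp was lowest. The log2 Ins2/Ppy ratio had an SD of 0.93 and ran from 4.71 to 6.79. With the dimmer Ppy probe set these SDs were 0.74 for Iapp and 0.65 for Ins2.

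Single probe sets did not overlap between the groups in 13.0% of those tested, Ttr among them. Of the 15 ratios, 1 did not overlap, that of Ppy to Ttr, which holds the same Ttr values. Its log2 value was 0.68, 0.61 and 0.60 in controls and 1.48, 1.62 and 0.93 in CF, a difference of 0.71. The exact two-sided permutation test gave p = 0.1, the smallest that 3 arrays against 3 allow, and an adjusted p of 0.9 over the 15 ratios. This permutation test cannot bring a ratio past 0.05 with 3 arrays per group. The difference was 0.61 with the dimmer Ppy probe set. When an array was left out it ran from 0.58 to 0.92, against -0.45 to -0.09 for Ins2/Gcg, lowest without CF replicate 3 and highest without CF replicate 2, and -0.46 to -0.19 for Ins2/Iapp, lowest without control replicate 2 and highest without control replicate 1. Of the 15 differences, 9 changed sign in this way, among them Ins2/Ttr, which was -0.30 without control replicate 1 and -0.08 without CF replicate 3.

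**Figure D4:**
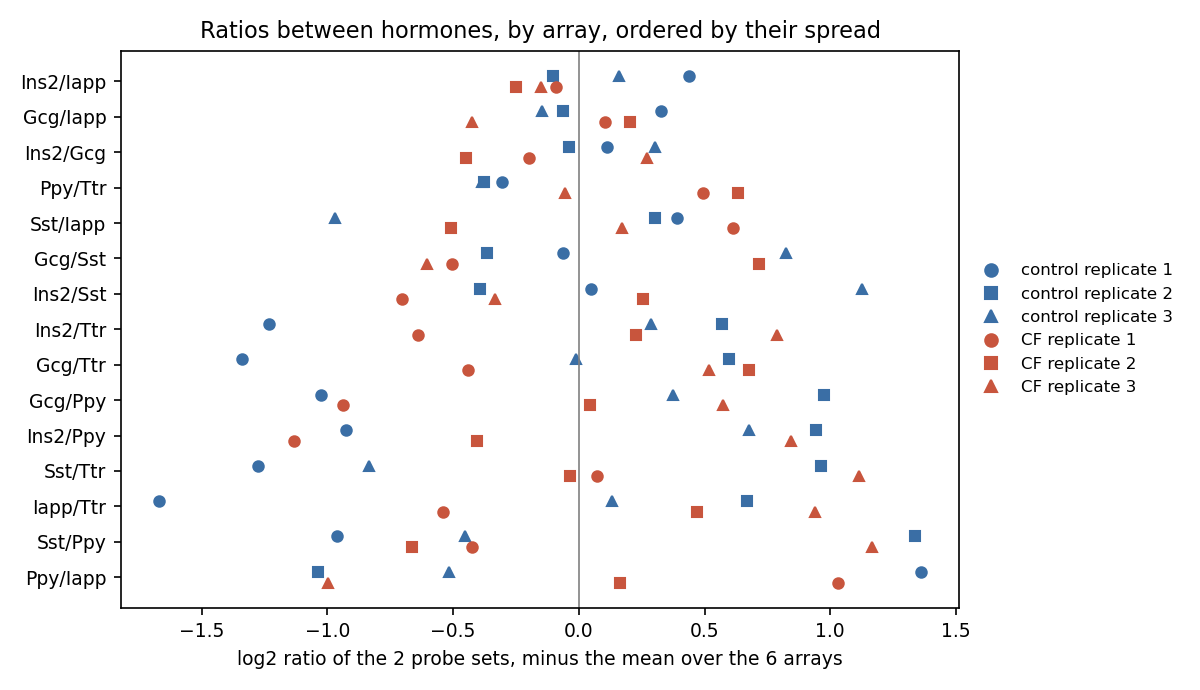
Log2 ratio of 2 hormone probe sets on each array, centred on its mean over the 6 arrays (x axis), for the 15 pairs ordered by SD (y axis), controls in blue, CF in red and the replicate as the symbol. Ins2/Iapp, Gcg/Iapp and Ins2/Gcg stay closest to 0, and in Ppy/Ttr the CF arrays lie to the right of the controls.

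Across the 6 arrays Ins2, Iapp and Gcg rose and fell together on the log2 scale. Ins2 and Iapp had a Pearson r of 0.97 and a Spearman rho of 1.00 (exact permutation p = 0.0014 and 0.0028; adjusted over 21 relations 0.029 and 0.058). Leaving out the 2 arrays farthest from the median of Ins2, control replicate 1 and CF replicate 1, r was 0.93. Gcg and Iapp had an r of 0.97 and a rho of 0.94 (exact permutation p = 0.0028 and 0.017; adjusted 0.029 and 0.12), with r = 0.82 without the same 2 arrays. Ins2 and Gcg had an r of 0.94 and a rho of 0.94 (exact permutation p = 0.0042 and 0.017; adjusted 0.029 and 0.12), with r = 0.70 without them, so that this relation rests in part on the replicate 1 arrays. Deviations from the group means gave r of 0.99, 0.98 and 0.95 for these 3 pairs. Each suffix holds 2 arrays, too few for a value within it, and since arrays with the same suffix resemble each other, these p-values may be too small.

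Sst followed the other hormones loosely, at r = 0.80 with Iapp, 0.77 with Gcg and 0.75 with Ins2 (exact permutation p from 0.067 to 0.096, adjusted 0.34 for each). For Ppy the relation depended on the probe set. The brighter was at r = -0.34 with Ins2, -0.16 with Iapp and -0.01 with Gcg, and the dimmer at 0.71, 0.80 and 0.83, with exact permutation p from 0.029 to 0.068 and adjusted p from 0.19 to 0.25 over 26 relations. Without control replicate 1 and CF replicate 1, r of the dimmer was 0.51 with Ins2, 0.43 with Iapp and 0.76 with Gcg. Over all arrays its Spearman rho was 0.66, 0.66 and 0.60 in the same order (exact permutation p = 0.17, 0.17 and 0.24). The 2 Ppy probe sets correlated with each other at r = 0.31.

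Ttr was at r = 0.38 with Ins2, 0.21 with Gcg, 0.19 with Iapp and 0.21 with Sst (exact permutation adjusted p from 0.72 to 0.80). Its deviations from the group means, which leave out the lower level in CF, gave r of 0.58, 0.52, 0.58 and 0.93. Without control replicate 1 and CF replicate 1, r with Ins2 was 0.85, while without control replicate 2 and CF replicate 3, r with Sst was -0.77.

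**Figure D5:**
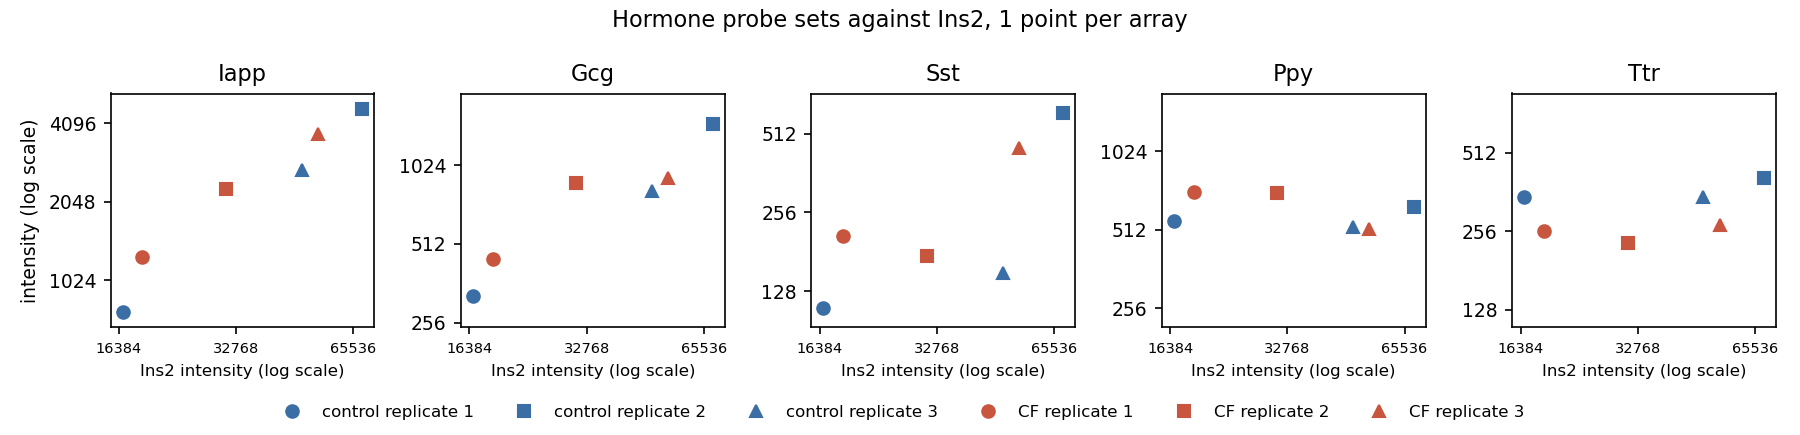
Intensity of Iapp, Gcg, Sst, Ppy and Ttr (y axes, log scale, each spanning the same number of doublings) against that of Ins2 (x axis, log scale), 1 point per array, controls in blue, CF in red and the replicate as the symbol. Iapp and Gcg climb with Ins2 (r = 0.97 and 0.94), while the brighter Ppy probe set (r = -0.34) and Ttr (r = 0.38) span a smaller range.

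Likeness to each hormone was measured as Pearson's r over the 6 arrays across all 7738 other tested probe sets. Among them Iapp ranked 6th closest to Ins2 and Gcg 29th, whereas the brighter Ppy probe set ranked 5618th and the dimmer 468th. Seen from Iapp, Gcg ranked 3rd and Ins2 5th. With so few arrays a high r was not confined to the hormones, and 66 probe sets, 0.853%, exceeded r = 0.9 with Ins2. Outside the hormones, the genes closest to Ins2 were Ptbp2, a neuronal splicing regulator (r = 0.987), Pnmt, the enzyme that makes adrenaline (0.981), and Ctnnd1, the adhesion protein p120 catenin (0.981). Closest to Gcg were Vav2, a guanine nucleotide exchange factor (0.994), Ctf1, the cytokine cardiotrophin (0.994), and Srm, the spermidine synthase (0.981). Pgap4 (0.989), Tmem230 (0.974) and Vav2 (0.971) came closest to Iapp, and Mia3 (0.992), which serves collagen export, Tyk2 (0.972), a Janus kinase, and Gcdh (0.970) to Sst.

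The brighter Ppy probe set and Ttr had other neighbours, and those of the dimmer Ppy probe set were not sought. The closest to the brighter Ppy probe set were Slc25a53 (r = 0.999), the steroid enzyme gene Hsd3b1 (0.993) and a second probe set of Ctf1 (0.991). The closest to Ttr were Asah1, the lysosomal acid ceramidase (0.995), Iyd, which recovers iodide from iodotyrosines (0.992), and Prl8a2, a prolactin relative (0.985). Asah1 read 955.5, 1095 and 986.5 in controls and 779.4, 750.7 and 814.3 in CF, a log2 difference of -0.37 ± 0.17 (limma adjusted p = 0.69). Iyd differed by -0.98 ± 0.34 (adjusted p = 0.55) and Prl8a2 by -0.55 ± 0.25 (adjusted p = 0.67), none of them past the threshold.

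The genes that process and package the hormones did not pass the threshold either. Of 20 listed prohormone processing and endocrine granule genes, 16 had a probe set and 13 were tested; 0 were called in limma (1 at an unadjusted p under 0.05, or 7.69%, beside 7.38% of all probe sets). Of the 13, 6 were higher and 7 lower in CF (median log2 difference -0.07, against 0.00 over all tested probe sets). Cpe, the carboxypeptidase that trims prohormones after cleavage, read 1685, 1217 and 1811 in controls and 394.1, 371.3 and 896.2 in CF, a log2 difference of -1.61 ± 0.35 without overlap (limma adjusted p = 0.20). Pcsk1n, which encodes an inhibitor of a prohormone convertase, averaged 193 ± 29.4 in CF against 108 ± 34.5 in controls, without overlap (0.89 ± 0.45, adjusted p = 0.72). Rab3a, a vesicle GTPase, and Scg2, a granin, differed by -0.43 ± 0.34 and -0.55 ± 0.53. Of the 13 genes, 5 had r above 0.5 with Ins2, where 16.3% of all tested probe sets did: Scg2 (0.96), Rab3a (0.88) and, named after their values were seen, Chgb (0.84), Scg5 (0.79) and Resp18 (0.64). Others ran the opposite way, such as Ptprn (-0.84) and Pcsk1 (-0.79), also named after their values were seen, and the median r of the list was 0.29.

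Set against the mean log2 value of those 13 granule genes on each array, Ttr stayed lower in CF without overlap. That mean itself differed by -0.08 between the groups, so this largely restates the Ttr values and is no second support. The difference of Ttr from that mean was 0.53, 0.30 and 0.61 in controls and 0.00, -0.13 and 0.20 in CF. This gave -0.46 (exact permutation p = 0.1, the smallest possible). Ins2, Gcg, Sst, Ppy and Iapp overlapped between the groups on this scale, with differences of -0.21, 0.04, 0.31, 0.25 and 0.12. Single arrays set the sign for 4 of them. From control replicate 1 left out to CF replicate 1 left out, the value ran from -0.74 to 0.18 for Ins2, -0.48 to 0.40 for Gcg and -0.54 to 0.55 for Iapp. For Sst it ran from -0.15 without CF replicate 3 to 0.89 without control replicate 2. With the islet transcription factors as the reference, the difference was 0.24 for Ins2, 0.49 for Gcg and 0.75 for Sst. For Ppy it was 0.70, for Iapp 0.57 and for Ttr -0.01. Each lay above its value against the granule genes.

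Of 22 islet transcription factors, 13 had a probe set and 6 were tested, with 0 called in limma (0 at an unadjusted p under 0.05, beside 7.38% of all probe sets), 5 lower in CF and 1 higher (median -0.56). The median was -0.26 without CF replicate 2, and -0.12 over all 13 without the filter. Pax6, needed for alpha and beta cell function, read 175.2, 199.8 and 144 in controls and 124.6, 143.2 and 72.7 in CF, without overlap (-0.65 ± 0.46, limma adjusted p = 0.81). Insm1, Foxa2 and Pax4 differed by -0.83 ± 0.59, -0.90 ± 0.86 and -0.35 ± 0.45. Most of these probe sets were dim, and Neurog3 and Isl1 were at or under the floor on all 6 arrays.

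Of 15 genes of beta cell glucose sensing and stimulus coupling, 7 had a probe set and 4 were tested, with 0 called in limma (1 of 4 at an unadjusted p under 0.05, beside 7.38% of all probe sets). The median was -0.21, and it ran from -0.43 without control replicate 3 to -0.05 without CF replicate 3. None of the 4 had r above 0.5 with Ins2, and their median r was -0.30. Ero1b, the endoplasmic reticulum oxidase that serves proinsulin folding, read 3941, 4943 and 4127 in controls and 3808, 2962 and 3071 in CF, without overlap (-0.40 ± 0.17, limma adjusted p = 0.66). Abcc8 and Kcnj11, the subunits of the ATP-sensitive potassium channel, differed by -0.39 ± 0.33 and 0.09 ± 0.74, and the calcium channel gene Cacna1c by -0.03 ± 0.29.

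Among 19 genes for receptors and partners of the hormones, 18 had a probe set and 11 were tested, with 0 called in limma (0 at an unadjusted p under 0.05, beside 7.38% of all probe sets), 4 higher and 7 lower (median -0.05). Gcgr, the glucagon receptor, averaged 534 ± 69.3 in CF against 443 ± 49.1 in controls, without overlap (0.27 ± 0.22, limma adjusted p = 0.84). Igf1r, the receptor for insulin-like growth factors, differed by 0.59 ± 0.29, Npy2r by -0.45 ± 0.32 and Ramp3, a partner of the calcitonin receptor family, by -0.71 ± 0.53.

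Markers of other cells were read beside the hormones. The acinar list, with 13 of 20 genes on the array, summed to between 774248 and 1061117 in controls and between 730131 and 829261 in CF, far above the other marker lists. Its mean log2 value was highest in control replicate 2, where Ins2, Gcg, Iapp and Sst were also highest. Of its 13 genes, 10 had r above 0.5 with Ins2, against 16.3% of all tested probe sets. With Gcg 11 of them did, against 16.5%, and with Iapp 12, against 15.6%. The median r of this list with Ins2 was 0.67, beside 0.29 for the granule genes. The ratio of the 3' to the 5' control probe set of Gapdh, which climbs as RNA degrades, was 1.45 in control replicate 2 and between 0.723 and 0.873 on the other 5 arrays. The same ratio for beta-actin was 2.16 in control replicate 2, close to the 2.14 of CF replicate 2, and did not set that array apart. The adipocyte list summed to 6454 to 21823 in controls and 5054 to 7472 in CF, and its mean log2 value was highest, at 10.6, in control replicate 1, where Ins2, Gcg, Iapp and Sst were lowest. For control replicate 1 alone, the label speaks of an entire pancreas. The part of RNA quality, fat and dissection in the spread of the hormones was not tested.

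For Ttr, the liver list is the closest check. Of its 15 genes 12 had a probe set, and they summed to 2198 to 3897 in controls and 1963 to 3304 in CF. The 5 tested were lower in CF (median log2 difference -0.38, with 0 called in limma), and Fgb and Ambp were at or under the floor on all arrays. The median was -0.09 over all 12 without the filter and ran from -0.22 without control replicate 1 to -0.60 without control replicate 3. Alb, the albumin gene, read 480.9, 650.4 and 462.4 in controls against 337.5, 403 and 541.1 in CF. Their part in the lower Ttr value was not tested. Median log2 differences were also -1.09 for adipocytes (9 tested), -0.61 for lymphocytes (8), -0.77 for macrophages and granulocytes (10), -0.34 for endothelial cells (7) and -0.17 for acinar cells (13), 0.26 for duct cells (13), -0.09 for neural and Schwann cells (6) and 0.13 for gut endocrine and epithelial cells (2). In these lists 0 of 73 tested genes were called in limma, and 15 had an unadjusted p under 0.05, or 20.5%, beside 7.38% of all probe sets, of which 5 were duct genes, led by Elf3.

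For the arrays as a whole, medians ran from 207.8 to 234.4, and limma called 5 of 7739 probe sets, all higher in CF. The brightest Cftr probe set read 318, 223 and 338.5 in controls and 466.9, 313.8 and 364.2 in CF, and the other 2 were under the floor on all arrays. As the position of these probe sets against the Cftr mutation is not known here, they do not check the labels. The brightest Gast probe set, too dim for a test, averaged 99.2 ± 13.9 in CF against 148 ± 24.9 in controls. With 3 mice per group, the number of arrays limits the precision of each value.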

How the data were processed

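Each array has 1 deposited intensity per probe set, on a linear scale. How the authors computed and scaled the deposited intensities is not stated in the labels. Trimmed means agreed between arrays (500.27 to 500.3), and the scale was kept. Groups came from the genotype in the labels and replicate numbers from the suffix of the sample titles. Probe sets were named from the platform annotation and RefSeq (GRCm38.p6). Values under 47.6 were set to it, log2 was taken, 66 control probe sets were left out, and probe sets above 140.2 (the 40th percentile) on at least 3 arrays were kept. CF and control were compared in limma 3.58.1 (R 4.3.3) with an intensity trend and Benjamini-Hochberg adjustment, threshold 0.05; all adjusted p-values named without a test are from limma. Single ratios had exact permutation tests (Python 3.11.15). For lists and ratios, each gene stood for its brightest tested probe set.

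Members and lists were chosen with earlier results of these data known. Named genes were the members, up to 4 genes of smallest p of each list, the 3 genes most like each hormone, Cftr and Gast. Between a control and a CF array, deviations from group means correlated at 0.23 to 0.26 for the same suffix. For unlike suffixes they correlated at -0.18 to -0.05. The suffix was therefore used for pairing, in the within-pair differences and the replicate block only. The main limma fit and the permutation tests given here did not use it. On simulated data, the fit called 17% of probe sets given a log2 difference of 1, 67.5% at 2 and 92.4% at 4. It called 0.0769% of those given none. The simulated spreads were shuffled among probe sets, so these shares are not those of the hormones. Nothing in the labels says more than that each array is 1 mouse; p-values measure the spread between these mice.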

Additional observations from a re-analysis of the deposited data

How the results depend on the processing

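The number of probe sets called, 5, was 8 with median scaling, 10 with the floor at the 40th percentile, 3 without the intensity trend, 12 with array weights, 10 with the replicate block, 0 without the filter (773 at an unadjusted p under 0.05 in limma), and 1 to 11 when an array was left out. None of the 7 hormone probe sets was called under any of these settings; the lowest adjusted p was 0.47, for Ttr with the replicate block. Ttr and the brighter Ppy probe set kept their direction in all 16 settings. Sst and the dimmer Ppy probe set were not tested with the filter at the 60th percentile. Gcg turned to 0.21 with array weights. Leaving out an array gave -0.88 to 0.14 for Ins2, -0.62 to 0.47 for Gcg, -0.26 to 0.99 for Sst, -0.69 to 0.61 for Iapp and -0.21 to 0.26 for the dimmer Ppy probe set, and medians of 0.17 to 0.40 for duct genes and -0.87 to -0.30 for macrophage and granulocyte genes. The cause was not tested. The 15 ratios moved by less than their spread between mice in all 170 alternative values. Even so, 9 of the 15 changed sign when an array was left out. Relative to islet transcription factors, the difference of each hormone was higher than relative to the granule genes. It was 0.75 for Sst, 0.70 for Ppy, 0.57 for Iapp, 0.49 for Gcg, 0.24 for Ins2 and -0.01 for Ttr. With more or fewer genes tested, the median was -0.12 for islet transcription factors without the filter, and with the filter at the 60th percentile -0.43 for granule, 0.09 for duct and -0.77 for endothelial genes. The replicate block changed no call of a hormone. Dim probe sets, such as the second of Ins2 and those of most islet transcription factors, limit what can be read. The correlations of the dimmer Ppy probe set were added after seeing the data.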

Other observations

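Genes of other epithelial and fat cells lined up differently with the hormones across the 6 arrays, as a description over few arrays that share group and suffix. Duct cell genes had a median r of 0.41 with the brighter Ppy probe set, with 6 of 13 genes above 0.5 where 21.2% of all tested probe sets were, and of -0.44 with Ttr, with 0 above 0.5. The median with the brighter Ppy probe set was also 0.41 for neural and Schwann genes and 0.40 for beta cell glucose sensing genes. Acinar genes had a median r of 0.71 with Gcg, 0.61 with Iapp, 0.64 with Ttr and -0.01 with the brighter Ppy probe set. Adipocyte genes had a median r of -0.69 with Gcg, -0.66 with Iapp and -0.48 with Ins2. With Ttr their median r was 0.47, and 3 of 9 were above 0.5, beside 18.4% of all tested probe sets.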
